A study of Drosophila melanogaster with 2 samples.

Results

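A set of 10 tracheal and epidermal genes, of the 13968 protein-coding genes annotated on the 7 chromosome arms, was followed through Ravus-eGFP chromatin immunoprecipitation with sequencing (ChIP-seq), an assay that recovers the DNA a tagged protein sits on. They were taken by name. The 6 tracheal genes were trh, btl, bnl, vvl, serp and verm, and the 4 epidermal genes were grh, ovo, kkv and mwh. All 10 symbols were found in the Ensembl annotation. A summit, the single base at which a peak is highest, was assigned to a gene when it lay inside it or within 2000 bp of its ends. It was called a promoter summit within 500 bp of one of the gene's own transcription start sites, on either side.

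The series holds 1 group of 2 biological replicates, numbered 1 and 2 in the labels. Both were whole Drosophila melanogaster embryos of 0 to 24 h from the Ravus-GFP strain, which carries an insertion targeting Ravus and expresses a Ravus-eGFP fusion. The fusion was pulled down through its GFP, chromatin was sonicated to 200 to 800 bp, and no sex was recorded. There is no second genotype or treatment, and whole embryos mix all cell types and a full day of stages, so a peak cannot be assigned to tracheal or epidermal cells. Peak lists hold no RNA levels, so whether the 10 genes were expressed was not tested. Of the 8 deposited dm6 peak lists, 4 are thresholded (a conservative and a further series list, and 1 per replicate) and 4 are ranked lists that reach down to weak peaks. The thresholded lists held 1450 to 1908 peaks and the ranked lists 9224 to 52143. Read depth is unknown, so a gene without a peak cannot be told from one below the detection limit.

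The tracheal system is the branched network of air tubes of the insect body. In Drosophila, trh switches on tracheal identity, and branches then grow toward cells that secrete the fibroblast growth factor made by bnl, which is sensed by the receptor made by btl. Tubes and epidermis are both lined by a cuticle of chitin, whose synthesis and modification need genes such as kkv, serp and verm, while grh and ovo act as transcription factors in the epidermis.

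Ravus-eGFP peaks in a thresholded list lay at 5 of the 10 genes, 1 site in each. A summit in at least 1 of the 4 thresholded lists was found at 20.4% of all protein-coding genes and at 31.2% of the 3201 that are 4784 to 42745 bp long, the length range of the 10. The sequences at 4 of these sites are shown to let the base composition be read beside the signal. The sequence of the fifth, at grh, is not shown. Each window is on the dm6 plus strand and reaches 50 bp to either side of the summit of the joined replicates, with its longest unbroken run of A and T in capitals. At trh 2 runs are equally long, and the first is in capitals. The windows are chr3L:377687-377787 for trh, chrX:5046731-5046831 for ovo, chr3L:1205259-1205359 for mwh and chr3R:19831065-19831165 for bnl.
trh: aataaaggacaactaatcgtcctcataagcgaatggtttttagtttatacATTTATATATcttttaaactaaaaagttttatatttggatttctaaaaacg
ovo: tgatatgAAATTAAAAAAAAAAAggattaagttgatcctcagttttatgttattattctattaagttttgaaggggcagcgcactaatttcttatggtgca
mwh: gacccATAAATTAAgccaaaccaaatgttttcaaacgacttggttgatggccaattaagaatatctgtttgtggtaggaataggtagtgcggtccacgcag
bnl: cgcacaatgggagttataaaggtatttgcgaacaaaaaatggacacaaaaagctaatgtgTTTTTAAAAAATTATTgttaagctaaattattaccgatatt
The run was 10 bp at trh, 16 bp at ovo, 9 bp at mwh and 16 bp at bnl, and at grh it was 11 bp. Over the 1472 conservative peaks on the arms the median run was 11 bp, with quartiles of 9 and 15 bp.

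Among the transcription factors of tracheal fate, trh was the single member with a promoter summit in any thresholded list. The gene encodes a bHLH-PAS factor that works as a dimer with Tango, and it spans 366524 to 392633 on the minus strand of 3L with 2 start sites. The summit at 377737 was 421 bp upstream of the inner start site at 377316, and 14896 bp into the longer transcripts, of which it occupied an intron. The peak spanned 377582 to 377891. Its signal, the peak caller's own value, was 94.6 in both series lists, where it ranked 1187 of 1474 in the conservative list and 1228 of 1653 in the further list. The conservative list had a median signal of 132 and a lowest signal of 62.2, so the trh peak stood in its weaker part.

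In replicate 1 the trh peak had a signal of 52.8 and ranked 894 of the 52143 ranked peaks. In replicate 2 it had a signal of 42.4 and ranked 1991 of 37242. The peak passed the threshold of both replicates' own lists, and its summits in the replicates lay 19 bp apart. Replicate signals are on scales that need not match, so positions within a list are the fairer comparison. The peak stood within the top 1.71% of replicate 1 and the top 5.35% of replicate 2, shares that depend on how many weak peaks each ranked list holds. In the thresholded lists it ranked 844 of 1450 in replicate 1 and 1742 of 1908 in replicate 2. Its signals were below the medians of those lists, 58.9 and 65.2.

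The outer promoter of trh carried a weak site only. Its summit at 392958 lay 325 bp upstream of the outer start site, in an exon of the noncoding gene lncRNA:CR45378. The signal was 41.4 in the series ranked lists, 11.8 in replicate 1 and 27.8 in replicate 2, and no thresholded list held it.

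The other transcription factor of the tracheal list, vvl, had no thresholded peak. It encodes a POU domain factor needed for tracheal development, and at 4784 bp it is the shortest of the 10 genes. Replicate 1 had 3 ranked summits there, the strongest with a signal of 15.0 in coding sequence. Replicate 2 had 7, the strongest with a signal of 23.5 in the upstream flank, 1672 bp before the start site. None of the 3 lay within 100 bp of any of the 7.

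The ligand and receptor genes of tracheal branching differed in length and in how many summits they held. The ligand gene bnl covers 42745 bp on 3R, from 19794073 to 19836817, and had 16 ranked summits in replicate 1 and 22 in replicate 2. The receptor gene btl covers 7458 bp on 3L, from 14075772 to 14083229, and had 2 and 0. Per kb with flanks, bnl had 0.342 in replicate 1 and 0.471 in replicate 2, and btl had 0.175 and 0. The btl summits of replicate 1 had signals of 14.8, at 221 bp downstream of an inner start site, and 13.1, in the upstream flank. Both were near the list median of 13.4, and no series list held a summit at btl.

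The bnl site passed the threshold in replicate 2 alone. Its signal there was 43.8, at rank 1880 of the ranked list, and its summit at 19831209 was 5608 bp inside the first start site, in an intron. In the series ranked lists the summit was at 19831115 with a signal of 47.5. The summit of replicate 2 is 94 bp from it, outside the window printed above. Replicate 1 had no summit within 100 bp and no peak spanning this position. The strongest bnl peak of replicate 1 lay 36821 bp away, toward the end of the gene, with a signal of 21.0.

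The chitin deacetylase genes serp and verm, whose products act in the lumen of the air tubes to limit tube length, are neighbours and had no thresholded peak. At serp the strongest site lay in the downstream flank, between the genes, with its summit at 19699885. Its signal was 44.3 in the series ranked lists, 21.9 in replicate 1 and 20.8 in replicate 2, and the strongest summits of the replicates were 145 bp apart. At verm the strongest summit of replicate 1, with a signal of 19.3, lay in the downstream flank. That of replicate 2, with 25.9, lay 856 bp away in coding sequence. The longer series ranked list held the flank site, in a noncoding exon of the gene Gbeta76C, and replicate 2 had a weaker summit there, with 19.0. Replicate 1 had 2 serp summits within 500 bp of a start site, with signals of 18.2 and 13.5, and replicate 2 had none. At verm it was the reverse, with 1 promoter summit of 15.5 in replicate 2 and none in replicate 1.

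Of the epidermal transcription factor genes, grh held the strongest site of all 10 genes. It encodes a CP2-family factor of epidermal barrier formation and spans 17801132 to 17842820 on 2R with 5 start sites. The summit at 17804940 lay in an intron, 2073 bp downstream of the nearest start site. Its signal of 144 was above the conservative list's median, at rank 643 of 1474. It was 65.4 in replicate 1, at rank 612 of the ranked list, and 67.9 in replicate 2, at rank 921. All 8 lists held the site, as all 8 held that of trh, and the replicate summits were 23 bp apart.

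A further grh site, 604 bp upstream of an inner start site and thus just outside the promoter window, had a signal of 25.4 in replicate 1 and 18.0 in replicate 2. It was in no thresholded list.

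The ovo site separated the replicates. The gene encodes zinc finger factors, among them the Shavenbaby form that directs epidermal cells to make denticles, and it spans 5048273 to 5070929 on X. The summit at 5046781 was 1492 bp upstream of the first start site, inside an intron of the noncoding gene lncRNA:CR44833 on the other strand. Replicate 2 had a signal of 64.4 there, at rank 1008 of its ranked list and inside its thresholded list. Replicate 1 had a peak that spanned the site with a signal of 18.0, at rank 11482, and its own summit was 104 bp away. The strongest ovo peak of replicate 1 was another, in coding sequence 750 bp downstream of an inner start site, with a signal of 25.8.

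The further series list held the ovo site with a signal of 82.5, whereas the conservative list did not. The authors named the lists as thresholded on the irreproducible discovery rate (IDR), which scores how well a peak's rank is repeated between a pair of inputs. Every peak of the conservative list had a −log10 IDR of at least 2.00 in the longer series ranked list, and every peak of the further list at least 2.001 in the shorter one. A further 41 peaks of the longer list reached 2 without being in the conservative list. The ovo site had 0.228 in the longer list and 2.49 in the shorter.

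At mwh, which encodes a formin-related protein that limits actin hairs to 1 per wing cell, the site lay in an intron. Its summit at 1205309 was 4523 bp into the gene and 3111 bp upstream of the inner start site. It was also 514 bp upstream of a CG9119 start site that lies inside mwh on the other strand. The signal was 68.9 in the further series list, at rank 1642 of 1653. The replicates gave 40.1, at rank 1409, and 39.4, at rank 2241, with summits 67 bp apart. Neither replicate's thresholded list held the peak. Its −log10 IDR was 1.84 in the longer series ranked list, just under the limit, where trh stood just over it with 2.04 and grh at 3.68. In the shorter list the mwh site had 2.31. In the ranked lists of replicates 1 and 2 it had 0.635 and 0.08, where trh had 3.523 and 2.745.

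The chitin synthase gene kkv had no thresholded peak. Its site in the series ranked lists, with a signal of 36.3, lay in an intron at 5387572 on 3R. This base is also in coding sequence of the nested gene CG14668, 92 bp from that gene's start site. The signal there was 17.2 in replicate 1 and 27.5 in replicate 2. The strongest kkv peak of replicate 1, with 19.8, was a different one in the downstream flank.

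**Figure D1:**
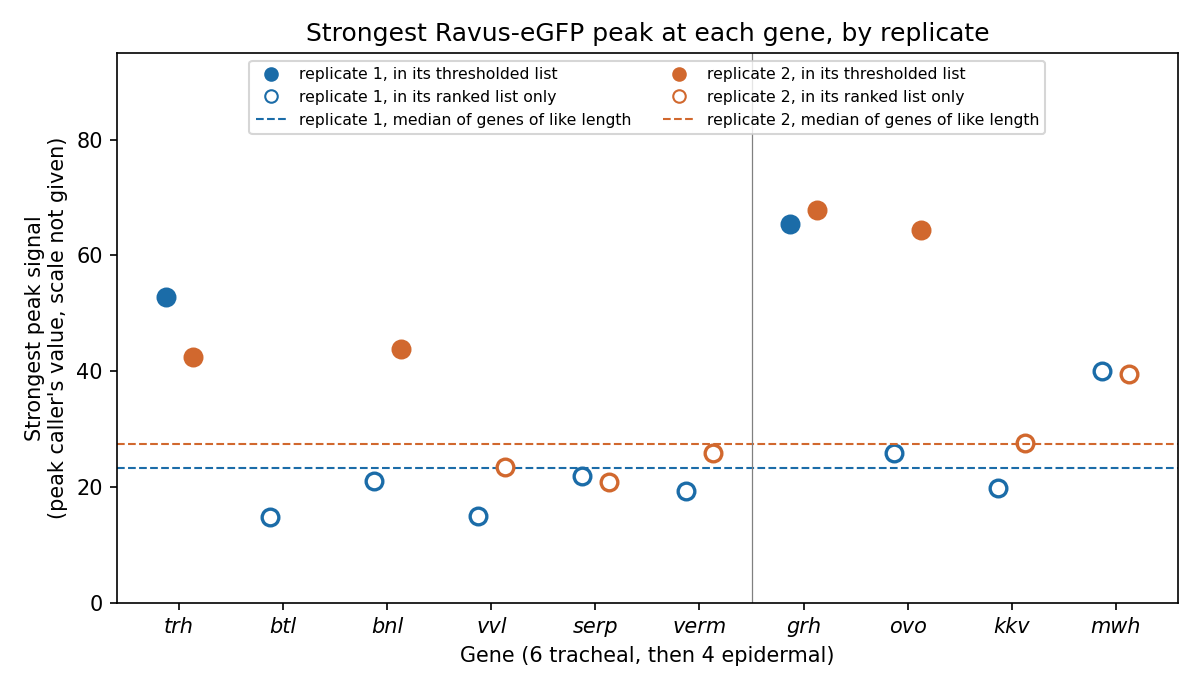
Signal of the strongest ranked peak at each gene (y axis, the peak caller's value on a scale not given) in replicate 1 (blue) and replicate 2 (orange). Filled points mark genes with a peak in that replicate's thresholded list, and dashed lines the median strongest signal of protein-coding genes in the same length range with a ranked summit, 23.2 and 27.4. The genes trh and grh are filled in both replicates, bnl and ovo in replicate 2 only, and btl has no point in replicate 2.

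Set against genes in their length range, the strongest signals of the 10 genes were spread from low to high. The genes used for this were those in the length range that had a ranked summit, 3071 of the 3201 in replicate 1 and 3137 in replicate 2. Their median strongest signal was 23.2 in replicate 1 and 27.4 in replicate 2. The value at grh was above 87.8% of these genes in replicate 1 and 83.5% in replicate 2. For trh the shares were 84.0% and 71.1%, for mwh 77.1% and 68.2%, and for ovo 59.3% and 82.2%. The values at btl and vvl were above 9.74% and 10.2% in replicate 1, and that of vvl was above 35.2% in replicate 2. Those of serp, verm, kkv and bnl lay between 29.8% and 43.7% in replicate 1, and between 23.8% and 72.4% in replicate 2.

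**Figure D2:**
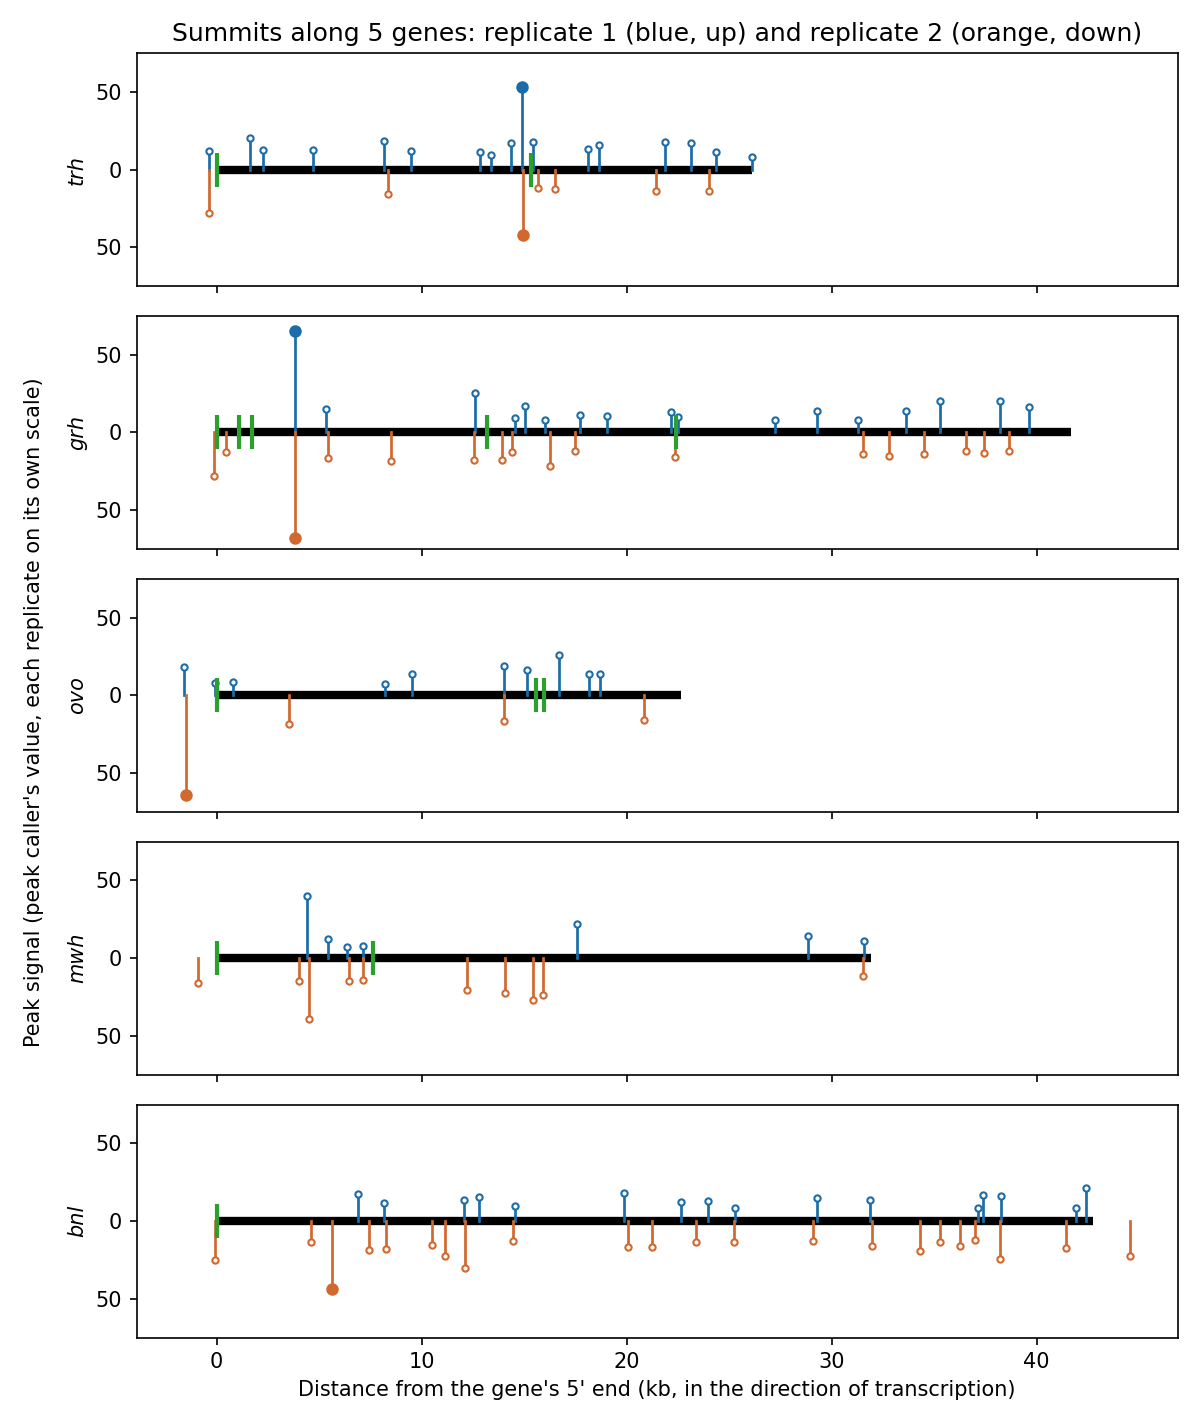
Signal of every ranked summit (y axis, the peak caller's value, each replicate on its own scale) against distance from the gene's 5' end in kb (x axis) for the 5 genes with a thresholded peak. Stems point up for replicate 1 and down for replicate 2, filled circles mark thresholded peaks, black bars the gene and green ticks its start sites. At trh, grh and mwh the tallest stems of the replicates coincide, within 67 bp, and at ovo and bnl they do not.

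The strongest peak was the same site in both replicates at 3 genes. The strongest summits of trh, grh and mwh lay within 100 bp of each other, those of serp within 200 bp, and those of bnl, vvl, verm, ovo and kkv were 856 to 36821 bp apart. Among the 11247 protein-coding genes with a ranked summit in both replicates, 35.4% had their strongest summits within 100 bp, and 37.9% of the 3023 in the length range did. The 3 of 9 genes with a ranked summit in both replicates were thus near the background. Within 200 bp it was 4 of 9, against 39.5% and 40.1%.

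Taking weak sites as well, replicate 1 had 92 ranked summits at the 10 genes and replicate 2 had 89. Of these, 19 lay within 100 bp of a summit of the other replicate, which is 20.7% of the 92 and 21.3% of the 89. Over the whole ranked lists the shares were 22.6% and 31.6%. Gene by gene, the share of replicate 1 summits matched was highest at mwh, with 3 of 7, and at kkv and verm, with 4 of 10 and 2 of 5. It was 0 at btl and vvl.

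Introns held the largest number of the ranked summits, strong and weak together. Of the 92 in replicate 1, 49 were intronic, 22 exonic, 12 at promoters and 9 in the flanks. Of the 89 in replicate 2, 47 were intronic, 21 exonic, 11 at promoters and 10 in the flanks. Classes follow each gene's own start sites and exons, so summits at promoters of nested genes count as intronic. Among these were kkv summits 173 and 58 bp from a CG14668 start site, and an mwh summit 4 bp from one of CG9119. Genes in the length range were classed by the same rule. The intronic share was 53.3% in replicate 1 and 52.8% in replicate 2, where ranked summits at all genes in the length range gave 44.4% and 42.2%. The flanks held 9.78% and 11.2%, against 19.7% and 21.7%. Flanks are equally long at every gene, so the flank and intronic shares depend on gene length, which was not matched within the range. Whether these differences remain at matched lengths was not tested. The density of the ranked summits at the 10 genes was 0.376 per kb in replicate 1, against 0.373 over the genome, and 0.364 per kb in replicate 2, against 0.269. The densest gene was verm in replicate 2, with 1.08 per kb, and in replicate 1 trh, with 0.565 per kb.

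By count, the 10 genes stood near the background of genes in their length range in the conservative list. In the conservative list 2 of 10 had a summit (exact Clopper-Pearson 95% interval of the share 2.5 to 55.6%, counting error over genes only). The genes were taken by name and not drawn at random, so such an interval does not carry over to a wider set of genes. The share was 14.6% of all protein-coding genes and 23.2% of those in the length range. Counting gene bodies alone left the 10 genes at 2 and the other shares at 5.03% and 13.1%. A promoter summit was found at 1 of 10, against 7.09% and 10.2%. The length range matters because the 10 genes had a median length of 18715 bp and all protein-coding genes one of 2164.5 bp. The range fixes only the shortest and longest length, and lengths within it were not matched.

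The further series list had a summit at 4 of 10 genes, trh, grh, ovo and mwh (interval 12.2 to 73.8%), against 16.5% of all genes and 25.5% in the length range. The list of replicate 1 had 2 of 10, trh and grh, against 14.4% and 22.6%. The list of replicate 2 had 4 of 10, trh, grh, ovo and bnl, against 18.0% and 27.7%. In each of these 3 lists trh was the one gene of the 10 with a promoter summit, against 8.07%, 6.99% and 8.82% of all genes and 11.1%, 9.72% and 383 of the 3201 in the length range.

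The ranked lists had a summit at most of the 10 genes, as they did at most genes. The longer series ranked list had one at 8 of 10, all but btl and vvl, against 50.1% of all genes and 71.2% in the length range. The shorter had one at 7 of 10, without verm as well, against 49.5% and 70.3%. In both, trh alone had a promoter summit, against 22.2% and 31.2% for the longer list and 22.0% and 30.8% for the shorter. The ranked list of replicate 1 had a summit at all 10, against 89.3% and 95.9%, and that of replicate 2 at 9, all but btl, against 88.0% and 98.0%. Promoter summits were at 7 of 10 genes in replicate 1, against 45.1% and 55.6%, and at 7 of 10 in replicate 2, against 46.9% and 62.0%.

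**Figure D3:**
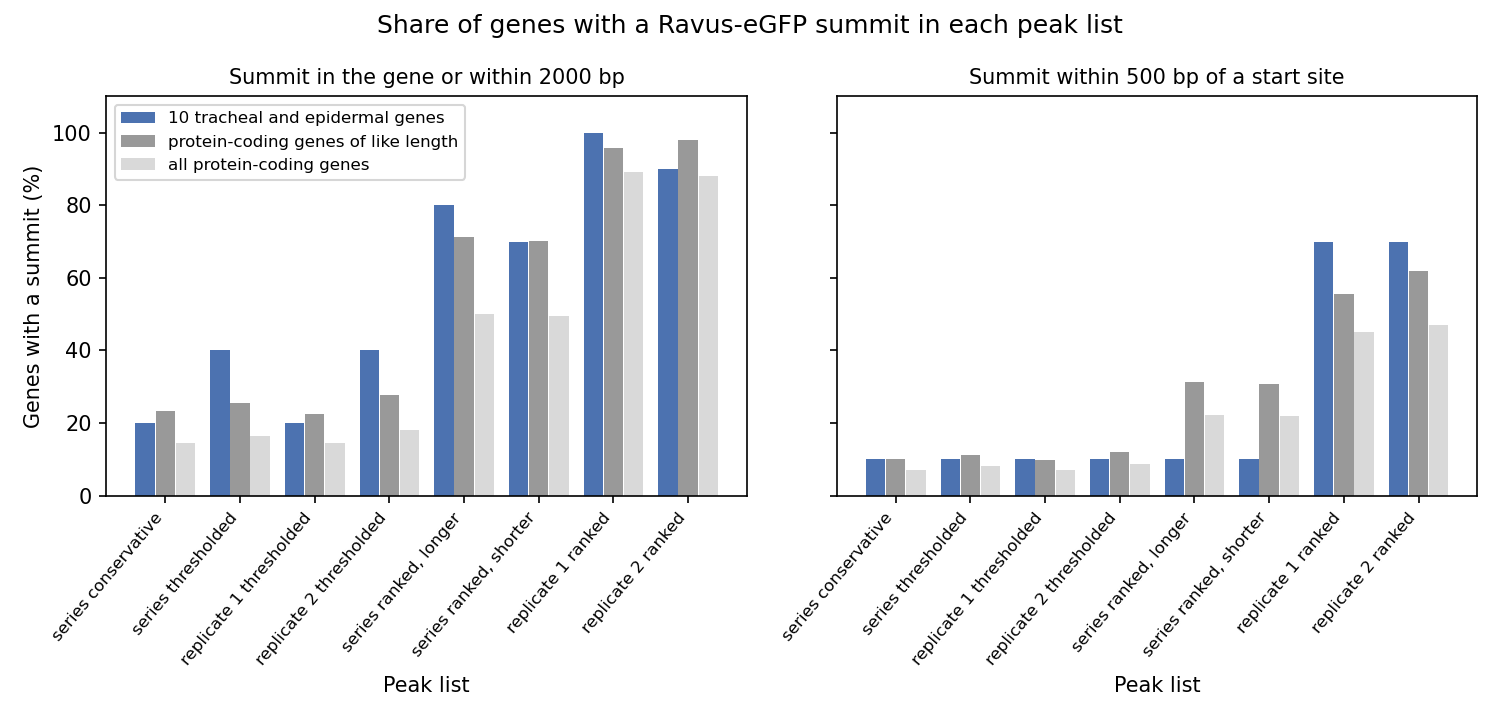
Percentage of genes (y axis) with a summit in each of the 8 peak lists (x axis). Bars are the 10 genes (blue), protein-coding genes in their length range (dark grey) and all protein-coding genes (light grey). The left panel counts summits in the gene or within 2000 bp and the right panel those within 500 bp of a start site, where the 10 genes stay at 1 of 10 in every thresholded list.

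Genes of the same pathways beyond the 10 were looked up from 2 wider lists, of 30 tracheal and 32 epidermal genes, of which 29 and 32 were matched by symbol. In the conservative list 6 of the 29 tracheal genes had a summit, or 20.7%, and 3 of the 32 epidermal genes, or 9.38%, against 14.6% of all genes and 23.2% in the length range of the 10. Of the wider genes in that range, 4 of 16 tracheal and 1 of 15 epidermal genes had a summit, and 4 tracheal and 6 epidermal genes were longer than it. The wider tracheal genes were aos, sty, stumps, rib, sano and Dys. The wider epidermal genes were sn, ds and fz. None of these epidermal genes had it at a promoter, and of the 6 listed as tracheal Dys alone did. However, Dys encodes Dystrophin and is not the tracheal gene dysfusion. It entered the list by its symbol, and the count of 6 includes it.

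Of the wider tracheal genes, aos had the strongest conservative site. An intron of aos, whose product binds and blocks the ligand of the epidermal growth factor receptor, had a signal of 294.5 at rank 153 of the conservative list, and 105 and 190 in replicates 1 and 2. An intron of sty, the Sprouty antagonist of the signal that bnl and btl start, had 137, 989 bp upstream of a start site, with 51.5 and 77.6 in the replicates. Downstream of stumps, which encodes the adaptor of the btl receptor, a peak of 109 lay 5954 bp from the nearest stumps start site but 205 bp upstream of CG14853. The Dystrophin gene Dys had a promoter peak of 141 and an intronic peak of 268.

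The transcription factor gene rib, which acts in tracheal tube growth, had intronic peaks of 108 and 85.1, and sano had one of 88.8. No other thresholded list held the sano peak. On the epidermal side, sn, the gene of the actin bundler fascin, had an intronic peak of 107. The cadherin gene ds had an intronic peak of 145 and one of 93.7 in its upstream flank, 542 bp from the start site. The receptor gene fz had intronic peaks of 118 and 87.1. Both ds and fz act in planar cell polarity, the process that also sets where the hairs limited by mwh form.

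The 5 thresholded sites were poor in GC at the summit relative to their own flanks. At bnl the windows centre on the summit of the series ranked lists, 94 bp from the thresholded summit of replicate 2. In windows of 50 bp to either side of the summit, GC was 23.8% at trh, 24.8% at grh, 27.7% at bnl, 28.7% at ovo and 41.6% at mwh, against a median of 29.7% over the 1472 conservative peaks (quartiles 24.8 and 34.7%). Windows 300 bp to either side averaged 62.9% at trh, which is 39.1 percentage points above the summit and the widest gap of the 5 sites. The summit of grh was lower than its flanks by 16.3 points, that of ovo by 21.3, that of bnl by 14.4 and that of mwh by 11.9. A summit below its flanks was found at 89.1% of the conservative peaks, with a median difference of -14.4 points. Centred on the summits of the replicate 2 thresholded list itself, all 4 member sites, bnl among them, lay below their flanks.

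**Figure D4:**
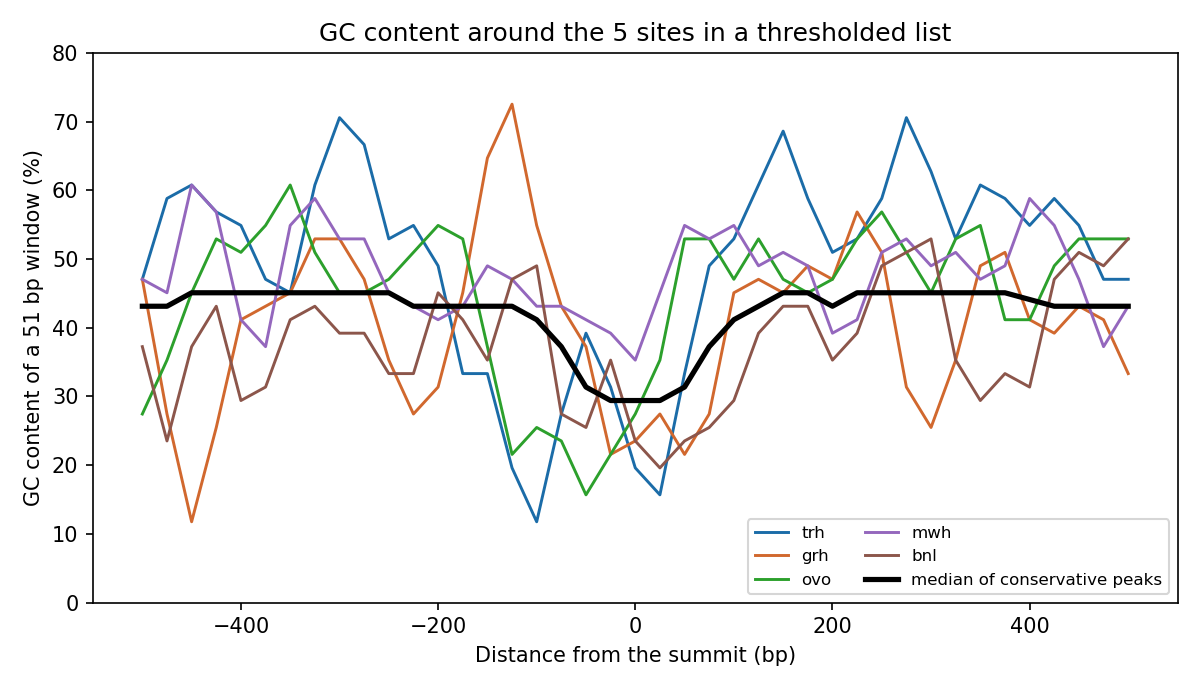
GC content of 51 bp windows (y axis, %) against distance from the summit in bp (x axis) for the 5 sites and, in black, the median of the conservative peaks. At the summit itself the trh, grh, ovo and bnl lines lie below the black line and mwh above it. The bnl line is centred on the summit of the series ranked lists.

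Summits of the same genes outside each replicate's thresholded list were not as poor in GC. Over these 90 ranked summits in replicate 1 the median GC was 47.5%, and 37 lay below their flanks, or 41.1%. Over the 85 in replicate 2 the median was 46.5%, and 30 lay below, or 35.3%. The ranked lists without their thresholded peaks had medians of 46.5% and 45.5%, and shares of 37.3% and 38.3%.

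The windows of the 5 sites, with that of bnl again centred on the series ranked summit, were searched on both strands for 6 short motifs. The motif TATAAA occurred 3 times in the trh window and once in that of bnl. It was held by 397 of the 1472 conservative peak windows and by 20.3% of the windows of the same length before the 5' ends of all protein-coding genes. The motif ATATAT was in the trh window, where it shares bases with a TATAAA match, and in 18.1% and 8.71% of those backgrounds. The E-box motif, CANNTG, was in the mwh window, and in 31.4% and 39.7%. The motif GAGAG was in none of the 5, and in 8.15% and 13.3%.

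The letters ACGTG, the core that trh binds with Tango, were in none of the 5 windows, and were held by 4.82% of conservative peak windows and 7.20% of the windows before genes. The letters ACCGGT, the core that grh binds, were in none of the 5 either, and in 0.61% and 1.10% of those backgrounds. No match says only that these letters are not in these windows.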

How the data were processed

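Peak lists came from 2 replicates of 1 group. Per the deposited file lists, the authors derived them on dm6 from the alignments and a control. The aligner and caller, not given in the sources used here, can move summits and signals. The deposited signal is the caller's value per peak on an unstated scale. It was used for rank within a list. The authors' ranked lists also give the −log10 of the IDR, capped at 5. A further 4 columns of input-list values in the series ranked lists were not used. Depth is unknown, and control values were not analysed here.

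Genes and start sites came from Ensembl release 115 (assembly BDGP 6.54), and sequence from RefSeq's copy of the same assembly. Peak ends were checked against arm lengths. Coordinates are 1-based. A site was followed into another list by a summit within 100 bp, or else by a peak spanning it. Counting was tested on simulated summits. Analyses used Python 3.11.15 with pandas 2.3.3 and scipy 1.17.1.

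With 1 group no test across samples was possible, and p-values are not given. Intervals of shares are exact 95% intervals. The 10 genes, the lists and the motifs were chosen with earlier results of these data known. All 10 genes are named, with each wider-list gene that had a conservative summit. Alternatives covered the peak list, replicates, signal, overlap and windows.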

Additional observations from a re-analysis of the deposited data

How the results depend on the processing

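The conservative list gave 2 genes with a summit and 2 summits, at trh and grh. Both counts were 4 in the further series list (trh, grh, ovo, mwh), and both were 1 when only the 737 strongest conservative peaks were kept, which left grh. Leaving out a replicate, by taking the other's own thresholded list, gave 2 to 4 genes and 2 to 4 summits: 4 without replicate 1 and 2 without replicate 2. The count of genes with a promoter summit was 1 under each alternative except for those strongest peaks, where it was 0, since the trh signal of 94.6 is below their lowest, 132.3. The 9 wider-list genes became 4 among those peaks and 10 to 11 without a replicate. With flanks of 0 and 5000 bp, and with whole intervals, the counts of the 10 genes stayed at 2, but their background moved. With no flank it fell from 14.6% to 5.03% of all genes, and from 23.2% to 13.1% in the length range. With 5000 bp it was 21.8% and 29.7%. The median GC at the summits, 24.3% over 2 sites, was 26.7% in the further series list, 26.7 to 28.7% without a replicate, 21.3% in windows of 30 bp to either side and 30.6% in windows of 100 bp to either side. These values rest on 2 to 4 sites each. For the background counts and the count of wider-list genes with a promoter summit, 13 alternatives stayed within 1.5 times and 6 did not. The length-range background, the 200 bp distance and the summits outside the thresholded lists were chosen after seeing the data. No paired analysis was possible because there is 1 group. Depth limits every absence of a peak, and its size is unknown.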
